A study of Mus musculus with 48 samples.

Results

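Brown adipose tissue of wild-type mice (hepAGT+/+, littermates with an intact angiotensinogen gene Agt) was compared between thermoneutral housing (TN, 30 °C, 4 libraries) and room temperature housing (RT, 20 to 22 °C, 4 libraries). The 8 libraries were those titled with that genotype and tissue, out of 48 in the series, which also holds liver and epididymal white fat and mice that lack Agt in hepatocytes (hepAGT-/-, here knockout). All mice were males kept in a 14:10 hour light and dark cycle and fed for 12 weeks on a Western diet, in which milk fat made up 21% and cholesterol 0.2%, so the RT mice are no lean or chow-fed control. The labels call the samples biological replicates and give no collection time. Nothing further says that they are separate animals, so p-values set a change against the spread between samples. That spread was estimated over the brown fat libraries of both genotypes. The 8 knockout brown fat libraries, 4 at RT and 4 at TN, and the 4 knockout RT epididymal libraries served as reference points.

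Brown fat makes heat. Sympathetic nerves release noradrenaline in the cold, beta-adrenergic receptors raise cAMP in the brown adipocyte, lipases free fatty acids, and uncoupling protein 1 (Ucp1) lets the mitochondrial inner membrane leak protons so that respiration gives heat instead of ATP. Ordinary room temperature is a mild cold stress for a mouse, and thermoneutral housing removes it. The tissue is then known to whiten, with larger lipid droplets and fewer mitochondria. In a piece of tissue, fewer cells of a type and less RNA per cell cannot be told apart.

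At TN, genes of fatty acid and cholesterol synthesis, of mitochondrial oxidation and of the respiratory chain were lower, and genes of the extracellular matrix, macrophages, vessels, interferon response and cell division were higher. Of 18032 genes tested, edgeR called 5867 (32.5%) at a Benjamini-Hochberg adjusted p under 0.05. Of these, 2864 (15.9% of those tested) were higher and 3003 (16.7%) lower at TN, and 3009 (16.7%) were called with a change of at least 2-fold. The 2 groups did not overlap for 4897 of all genes tested (27.2%), 4041 of them called. The median log2 change over all genes tested was 0.11, so "called" shares below are read against these percentages. Values are counts per 1000000 reads (CPM), scaled with TMM and not corrected for gene length, and log2 changes are TN minus RT with the standard error (SE).

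**Figure D1:**
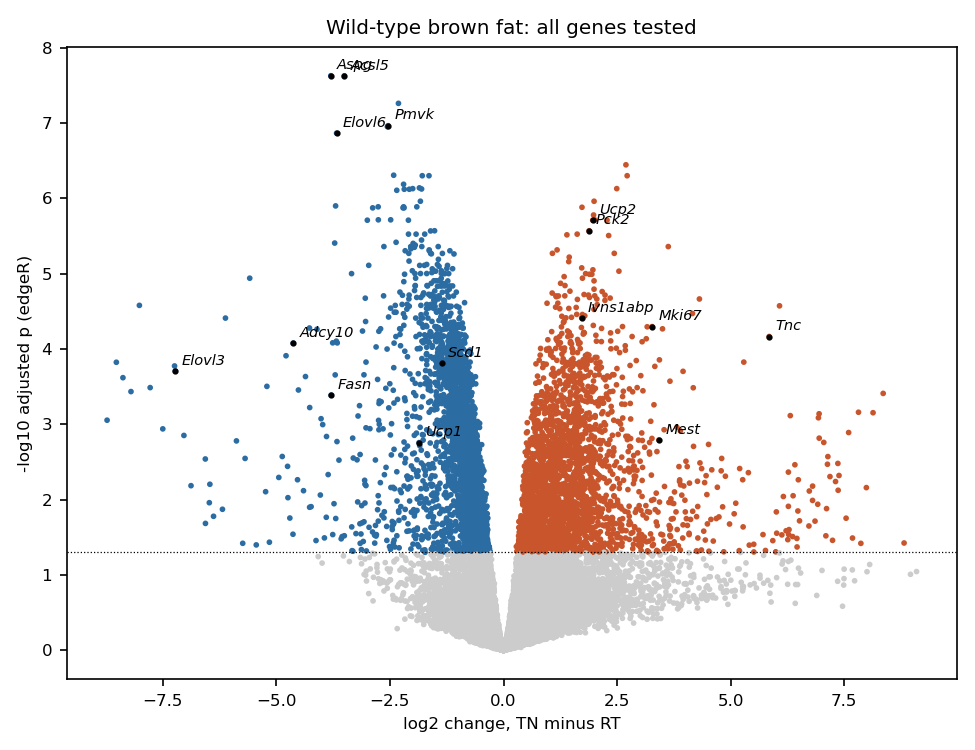
Each point is 1 of the 18032 genes, with the log2 change TN minus RT on the x axis and the negative log10 of edgeR's adjusted p on the y axis; the dotted line is 0.05, orange is called higher and blue called lower. Aspg and Acsl5 sit highest on the lower side, and Elovl3 lies far to the left at -7.22.

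Total counts per library ran from 25.305 to 39.383 M (megareads) at RT and from 27.32 to 31.266 M at TN, with 19.7% to 25.3% and 17.2% to 32.0% in mitochondrial genes, and no pair of replicates agreed within counting noise. Brown adipocyte genes were present in each library: the summed level of 12 adipocyte and brown adipocyte markers was 11610 to 17200 CPM at RT and 7437 to 11670 CPM at TN. The second principal component, with 18.2% of the variance, spread the TN libraries widely, from replicate 24 (-98.2) and replicate 6 (-32.4) to replicates 7 (46.05) and 1 (52.15). TN replicate 24 also had the lowest mean correlation with its own group among the 8 libraries (0.924 against 0.938 to 0.9525). RT replicate 12 and TN replicate 24 differed from the other 6 in clock genes. The clock activator Arntl was at 14.4 CPM in RT replicate 12 and 9.90 CPM in TN replicate 24 against 0.400 to 2.61 CPM in the other 6, and its target Dbp was at 14.3 and 25.4 CPM against 63.2 to 97.8 CPM. Skeletal muscle markers summed to 8132 CPM in TN replicate 6 and 7874 CPM in TN replicate 24, against 72.8 to 718 CPM in the other 6. Without RT replicate 12 and TN replicate 24, the 2 libraries with high Arntl, 7369 genes were called (3784 higher, 3585 lower), and without TN replicates 6 and 24, the 2 with muscle RNA, 5160 (2542 higher, 2618 lower).

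Ucp1 (ENSMUSG00000031710) was at 4856, 10920, 8235 and 8053 CPM in the RT libraries (replicates 12, 15, 17 and 18) and at 1842, 1298, 1296 and 4397 CPM in the TN libraries (replicates 1, 6, 7 and 24). The groups did not overlap, but the gap was narrow because RT replicate 12 was the lowest of its group and TN replicate 24 the highest. The mean fell from 8016 ± 2481 to 2208 ± 1481 CPM (SD, n = 4 each), a log2 change of -1.86 ± 0.39 (SE, edgeR adjusted p 0.00175). Elovl3 (ENSMUSG00000038754), a fatty acid elongase that cold induces in brown fat, was at 169 to 340.5 CPM in the RT libraries and at 1.39, 0.270, 1.14 and 4.44 CPM at TN. Its log2 change was -7.22 ± 0.99 (edgeR adjusted p 0.000196).

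Of 14 genes for uncoupling and other heat-linked effectors of the brown adipocyte, 9 fell, 1 rose and 4 were not called. Beside Ucp1 and Elovl3, the acyl-CoA thioesterase Acot11 fell from 922 ± 250.3 to 72.9 ± 41.4 CPM (log2 -3.66 ± 0.48), and the mitochondrial protein Letmd1 from 947 ± 122 to 236 ± 56.2 CPM (-2.01 ± 0.23). The lipid droplet protein Cidea (2652 ± 644 to 1031 ± 201 CPM, log2 -1.36 ± 0.22) and the cytochrome oxidase isoform Cox8b (2238 ± 807 to 690 ± 143 CPM, log2 -1.70 ± 0.26) also fell. The single member that rose was Ucp2 (ENSMUSG00000033685), a relative of Ucp1 common in immune and other cells, at 14.9 to 22.0 CPM at RT and 73.1 to 76.6 CPM at TN (log2 1.96 ± 0.19, adjusted p 1.96e-06). Dio2, the deiodinase that makes active thyroid hormone inside the brown adipocyte, was not called. It was at 73.9, 48.0, 72.8 and 47.6 CPM at RT and at 32.8, 8.04, 18.6 and 193 CPM at TN, so 3 TN libraries lay below the RT libraries and replicate 24 above them. Without replicate 24 its log2 change was -1.616 instead of 0.057, still not called.

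**Figure D2:**
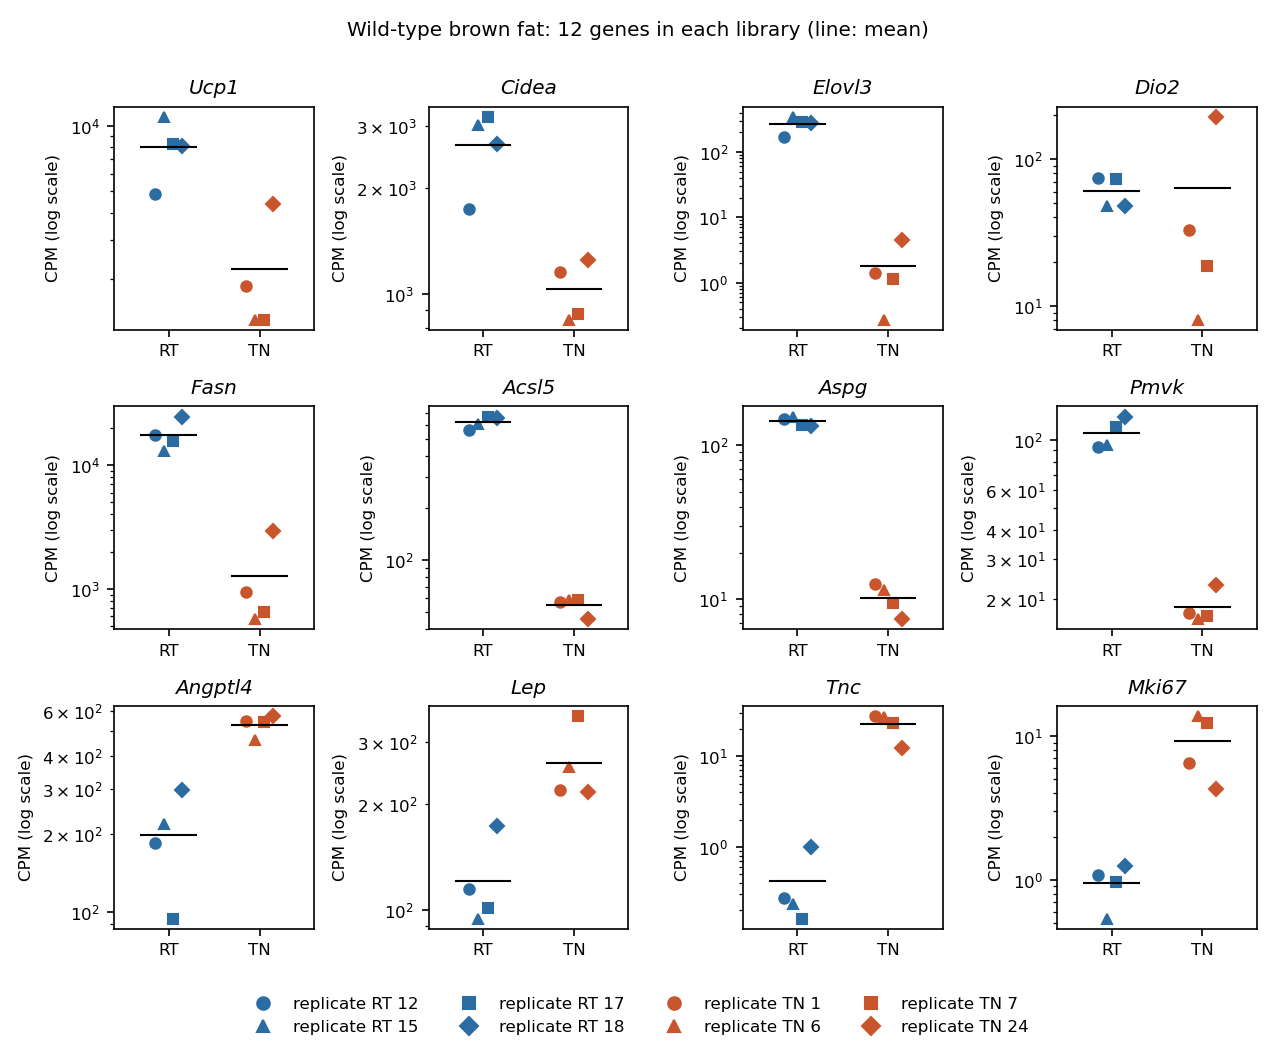
Each panel shows 1 gene in the 8 wild-type libraries as CPM on a log axis, with RT in blue, TN in orange, a marker shape for each replicate and a line at the group mean. Elovl3, Fasn, Acsl5, Aspg, Pmvk, Tnc and Mki67 separate fully, while Dio2 overlaps because TN replicate 24 (diamond) is at 193 CPM.

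Among 23 transcription factors and coactivators of the brown adipocyte, 4 rose, 4 fell and 15 were not called, with a median log2 change of -0.16. These shares are near those over all genes tested (15.9% higher and 16.7% lower). Prdm16, the factor that sets brown identity, was at 24.6 ± 6.99 CPM at RT and 21.5 ± 6.84 CPM at TN, and the coactivator Ppargc1a at 47.9 ± 11.9 and 40.3 ± 22.8 CPM. The groups overlapped for both genes, and neither was called. The nuclear receptor Esrra, a driver of mitochondrial genes, fell from 144 ± 2.26 to 78.8 ± 12.6 CPM (log2 -0.87 ± 0.15), and Klf11 rose from 10.2 ± 1.40 to 18.8 ± 5.09 CPM (0.89 ± 0.19). The immediate early receptor Nr4a1 rose from 9.57 ± 4.38 to 71.0 ± 37.8 CPM, a call lost without any of RT replicates 12, 15 or 17 or TN replicates 1 or 7 (log2 2.555 to 2.818), without the filter on low counts (2.919), and without RT replicate 12 and TN replicate 24 (2.984). The counts of this list fell to 2 higher without RT replicate 15 or 17 or TN replicate 1 or 7. They fell to between 1 and 2 lower without RT replicate 17 or TN replicate 1, 6 or 7.

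Members of adrenergic and cAMP signalling moved in both directions. Of 24 tested, 8 rose, 7 fell and 9 were not called. The beta-3 receptor Adrb3, the main noradrenaline receptor of mouse brown adipocytes, was at 212, 167, 175 and 215 CPM at RT and at 130, 105, 144 and 145 CPM at TN. The groups did not overlap, and the log2 change was -0.56 ± 0.18 (adjusted p 0.0240), but the call was lost without RT replicate 18 (-0.501), TN replicate 1 (-0.535) or TN replicate 6 (-0.443), or without TN replicates 6 and 24 (-0.484). Gnas, which encodes the stimulatory G protein, fell from 2931 ± 314 to 1367 ± 230 CPM (-1.10 ± 0.19), and the soluble adenylyl cyclase Adcy10 fell from 14.0 ± 5.24 to 0.554 ± 0.408 CPM (-4.63 ± 0.62). Adcy5, a membrane cyclase, rose from 2.71 ± 1.52 to 10.8 ± 2.15 CPM (1.99 ± 0.45). The number lower in this list was 4 without TN replicate 1 or 7 and 3 without TN replicate 6.

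Synthesis of fatty acids was the list with the lowest median of the 42 lists examined: 15 of 16 members fell, 1 (Insig2) was not called, and the median log2 change was -2.40. Fasn (ENSMUSG00000025153), fatty acid synthase, was at 17400, 12970, 15730 and 24680 CPM in the RT libraries. At TN it was at 945, 569.5, 656 and 2930 CPM, so the lowest RT library was still several fold above the highest TN library, replicate 24. The log2 change was -3.795 ± 0.618 (adjusted p 0.00041). Acly, which makes cytosolic acetyl-CoA from citrate, fell from 3608 ± 1622 to 361 ± 314 CPM (log2 -3.32 ± 0.64), and the elongase Elovl6 from 1307 ± 275 to 102 ± 27.2 CPM (-3.67 ± 0.27). Malic enzyme Me1, a source of NADPH, fell from 1235 ± 312 to 155 ± 66.8 CPM (-2.998 ± 0.29). The desaturase Scd1 was at 70810 to 97990 CPM at RT and at 30920 to 32300 CPM at TN (log2 -1.355 ± 0.214). The lipogenic factor Thrsp fell from 4488 ± 1143 to 861 ± 428 CPM. The regulators Srebf1 (292 ± 48.7 to 199.5 ± 27.5 CPM, log2 -0.55 ± 0.19) and Mlxipl (-0.69) fell with smaller estimates than these enzymes.

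Cholesterol synthesis fell with it: 16 of 21 genes of synthesis and uptake were lower, 5 were not called, and the median log2 change was -1.68. Pmvk (ENSMUSG00000027952), phosphomevalonate kinase, was at 92.5, 95.1, 114 and 126 CPM at RT and at 17.3, 16.2, 16.7 and 23.0 CPM at TN. The groups did not overlap (log2 -2.54 ± 0.18, adjusted p 1.09e-07). The later enzymes Nsdhl (105 ± 18.2 to 15.5 ± 5.88 CPM) and Sqle (25.2 ± 4.91 to 4.07 ± 1.38 CPM) fell by 2.76 and 2.63 on the log2 scale.

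Because these genes fell together, the 250 bases before the start site were searched on both strands for 4 motifs. These were the CCAAT box (CCAAT, bound by NF-Y), a sterol regulatory element (TCACCCCAC), an estrogen-related receptor site (TCAAGGTCA) and the cAMP response element (TGACGTCA). Promoters are from RefSeq, build GRCm38.p6, 1 start per gene (the first of 2 for Pmvk), and the table held 11911 of the tested genes, 15 of the cholesterol list and 14 of the fatty acid synthesis list. A CCAAT box was in 14 of 15 cholesterol promoters (93.3%) and 9 of 14 fatty acid synthesis promoters (64.3%), against 36.0% of the tested genes' promoters and 34.5% of all 27025. It was also in 17 of 19 promoters (89.5%) of the cell cycle list, whose called members rose. Other lists whose called members rose had 83.3% (MHC class II), 40.0% (matrix), 33.3% (interferon) and 30.0% (macrophages). The clock and stress response lists, with calls in both directions, had 68.8% and 68.4%. Among genes called with a change of at least 2-fold it was in 38.6% of the promoters of those lower and 35.8% of those higher. Lists whose called members also fell differed, with 14.3% for triglyceride synthesis, 31.2% for complex I, 61.5% for ATP synthase and 80.0% for peroxisomal oxidation. The exact sterol element was in 1 of 15 and none of 14 promoters of the 2 lists, against 0.487% of tested genes. The receptor site was in none of either list (0.243% of tested genes), and the cAMP element in none of 15 and 1 of 14 (2.53%). Matches describe letters in this window and are not binding sites. The windows of 5 genes of the 2 lists and of Ucp1 are printed 5′ to 3′ on the gene's strand, so that the boxes can be placed, with CCAAT or its reverse complement ATTGG in capitals:
Fasn (chr11:120824548-120824797, minus strand): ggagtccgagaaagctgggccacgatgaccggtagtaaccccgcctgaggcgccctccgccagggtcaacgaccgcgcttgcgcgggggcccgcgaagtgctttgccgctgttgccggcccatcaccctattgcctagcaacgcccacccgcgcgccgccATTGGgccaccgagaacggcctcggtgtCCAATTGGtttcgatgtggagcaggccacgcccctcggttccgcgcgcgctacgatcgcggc
Elovl6 (chr3:129532136-129532385, plus strand): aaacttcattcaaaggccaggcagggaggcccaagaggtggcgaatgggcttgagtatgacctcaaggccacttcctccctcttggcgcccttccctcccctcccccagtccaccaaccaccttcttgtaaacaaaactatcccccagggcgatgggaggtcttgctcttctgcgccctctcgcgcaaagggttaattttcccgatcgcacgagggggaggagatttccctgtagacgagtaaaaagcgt
Pmvk (chr3:89454291-89454540, plus strand): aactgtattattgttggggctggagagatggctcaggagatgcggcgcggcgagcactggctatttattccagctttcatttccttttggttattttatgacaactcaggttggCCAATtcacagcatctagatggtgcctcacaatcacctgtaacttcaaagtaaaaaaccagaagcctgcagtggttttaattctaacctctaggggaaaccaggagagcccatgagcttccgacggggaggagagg
Nsdhl (chrX:72918271-72918520, plus strand): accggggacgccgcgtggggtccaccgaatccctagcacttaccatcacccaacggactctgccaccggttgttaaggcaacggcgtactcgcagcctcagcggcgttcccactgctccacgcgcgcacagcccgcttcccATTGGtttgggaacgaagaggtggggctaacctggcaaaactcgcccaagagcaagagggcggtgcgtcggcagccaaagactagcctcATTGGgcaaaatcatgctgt
Lss (chr10:76531355-76531604, plus strand): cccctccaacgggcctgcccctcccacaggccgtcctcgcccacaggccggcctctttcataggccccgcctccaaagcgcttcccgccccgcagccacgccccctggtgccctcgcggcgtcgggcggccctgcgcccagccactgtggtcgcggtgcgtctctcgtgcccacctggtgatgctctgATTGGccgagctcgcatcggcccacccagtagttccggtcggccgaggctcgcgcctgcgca
Ucp1 (chr8:83290098-83290347, plus strand): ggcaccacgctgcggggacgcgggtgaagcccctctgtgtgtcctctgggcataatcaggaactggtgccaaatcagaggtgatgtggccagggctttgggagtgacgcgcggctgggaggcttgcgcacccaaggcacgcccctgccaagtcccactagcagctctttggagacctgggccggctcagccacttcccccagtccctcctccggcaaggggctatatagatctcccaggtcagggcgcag
In Fasn the box begins 62 bases before the start site and overlaps an ATTGG that begins 59 bases before it, with another at 90. Nsdhl has ATTGG at 109 and 20 bases, Lss at 62 and Pmvk CCAAT at 136 bases before the start. The windows of Elovl6 and Ucp1 hold none of the 4 motifs.

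Triglyceride and glycerol phosphate synthesis followed, with 7 of 12 genes lower, 5 not called and a median of -0.93. Gpd1, which makes glycerol 3-phosphate, fell from 8518 ± 1432 to 2720 ± 1220 CPM (log2 -1.65 ± 0.30), and the acyltransferase Agpat2 from 2127 ± 334 to 380.0 ± 226 CPM (-2.49 ± 0.32). The final enzyme Dgat2 was not called (-0.15). Among 17 genes of lipoprotein lipolysis and fatty acid uptake, 6 fell, 1 rose and 10 were not called. The number that rose was 2 with DESeq2, in the 8 wild-type libraries alone and without TN replicate 24. The acyl-CoA synthetase Acsl5 (ENSMUSG00000024981) was at 565, 605, 671 and 655 CPM at RT and 57.1, 58.7, 58.8 and 45.3 CPM at TN. This is a log2 change of -3.50 ± 0.22 (adjusted p 2.37e-08), with every TN library at a similar level. The single member that rose was Angptl4, an inhibitor of lipoprotein lipase, at 185, 219, 93.9 and 296 CPM at RT and 549.5, 461, 541 and 572 CPM at TN (log2 1.42 ± 0.24). Its relative Angptl8 fell from 59.3 ± 47.8 to 9.63 ± 5.80 CPM (-2.62 ± 0.59), with RT replicate 17 at 131 CPM. Lpl itself was at 3878 ± 1254 CPM at RT and 2599 ± 638 CPM at TN and was not called, although it was with DESeq2 (log2 -0.561), without RT replicate 12 (-0.729), and without RT replicate 12 and TN replicate 24 (-0.820). The fatty acid transporter Cd36 was not called (2164 ± 412 and 2071 ± 227 CPM).

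Of 14 lipases and lipid droplet proteins, 5 fell, 2 rose and 7 were not called. The rate-limiting lipase Pnpla2 (1990 ± 84.2 and 1698 ± 120 CPM) and the hormone-sensitive lipase Lipe (1077 ± 191 and 862 ± 123 CPM) were not called. The droplet proteins differed among themselves. Plin2 (log2 -1.51 ± 0.37), Cidec (-1.25 ± 0.26) and Plin5 (-1.06 ± 0.26) fell, while Plin4, typical of white adipocytes, rose from 515 ± 58.1 to 992 ± 70.0 CPM (0.94 ± 0.16). Glycerol kinase Gk was at 107, 363, 252 and 100.3 CPM at RT and at 51.1, 33.1, 45.0 and 248 CPM at TN, which was not called (log2 -1.13 ± 0.69). Without TN replicate 24 the change was -2.257 and called, as it was without RT replicate 12 and TN replicate 24 (-2.471).

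Genes of mitochondrial oxidation fell nearly as blocks. For the nuclear-encoded subunits of complex I, 37 of 37 tested were lower, with changes from -1.82 (Ndufs8) to -0.73 (Ndufs7). The same 37 of 37 count was reached in all of the other settings tried. Of 26 genes of complexes III and IV, 23 fell, 1 rose and 2 were not called. Uqcrq went from 1029 ± 314 to 319 ± 64.3 CPM (log2 -1.69 ± 0.23). The member that rose was Cox6b2 (1.03 ± 0.32), a low-level isoform whose call was lost without RT replicate 17 or 18 or TN replicate 24. In ATP synthase 14 of 15 fell, for example Atp5j2 from 1168 ± 373 to 424 ± 104 CPM (-1.46 ± 0.23), and Atp5g1 was not called. The median changes were -1.32 for complex I, -1.25 for complexes III and IV and -0.96 for ATP synthase.

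The 13 mRNAs encoded by the mitochondrial genome gave fewer calls. Of these, 6 fell and 7 were not called, with a median of -0.76. mt-Co1 was at 92190 ± 13670 CPM at RT and 79910 ± 36050 CPM at TN and was not called, and mt-Nd1 was at 23760, 43290, 40880 and 37160 CPM at RT and 29770, 11990, 11270 and 19360 CPM at TN. TN replicate 1 overlapped the RT libraries for mt-Nd1. The number lower was 10 without TN replicate 1, 3 without TN replicate 6 or 7 and 1 without TN replicates 6 and 24 together.

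Upstream of the respiratory chain, 24 of 28 genes of pyruvate dehydrogenase and the TCA cycle fell, 1 rose and 3 were not called (median -1.04). The phosphatase Pdp1, which rose (0.83), lost its call without RT replicate 17. Pdhb, a subunit of pyruvate dehydrogenase, fell from 1650 ± 297 to 365 ± 125 CPM (log2 -2.18 ± 0.25). Its inhibitory kinase Pdk1 was at 182 to 198 CPM at RT and 50.8 to 54.6 CPM at TN (-1.85 ± 0.16), and Pdk4, another such kinase, was not called. Mitochondrial fatty acid oxidation had 17 of 20 lower and 3 not called (median -1.03). Cpt2, which reloads acyl groups onto CoA inside the mitochondrion, fell from 816 ± 205 to 211 ± 35.0 CPM (-1.95 ± 0.22), and the trifunctional enzyme subunit Hadha from 3523 ± 694 to 1034 ± 320 CPM (-1.77 ± 0.26). The entry step Cpt1b was not called (0.52). Peroxisomal oxidation had 10 of 15 lower and branched-chain amino acid catabolism 15 of 18, for example Bckdha from 756 ± 151 to 255 ± 46.0 CPM (-1.57 ± 0.18).

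Glucose handling fell as well, with 18 of 24 genes lower, 1 higher and 5 not called (median -1.24). Isoforms of the glycogen enzymes differed. Liver-type glycogen synthase Gys2 fell from 104 ± 33.2 to 14.9 ± 7.37 CPM (log2 -2.81 ± 0.37) and liver-type phosphorylase Pygl from 1178 ± 208 to 181 ± 93.9 CPM (-2.71 ± 0.36). Brain-type phosphorylase Pygb, the member that rose, went from 103 ± 10.3 to 201 ± 16.8 CPM (0.96 ± 0.17). The glycolytic enzymes Eno1 (4088 ± 1341 to 852 ± 328 CPM) and Aldoa (4924 ± 1324 to 1360 ± 492 CPM) fell by 2.26 and 1.86. The insulin-regulated transporter Slc2a4 fell from 372 ± 70.1 to 183 ± 45.8 CPM (-1.02 ± 0.23), and the fructose transporter Slc2a5 from 45.5 ± 25.6 to 2.78 ± 4.25 CPM (-4.03 ± 1.00).

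Genes proposed for heat production without Ucp1, through creatine and calcium cycling, did not move one way: of 14, 4 rose, 3 fell and 7 were not called. The 4 that rose belong to creatine metabolism, among them creatine kinase Ckb (17.9 ± 3.21 to 47.0 ± 20.8 CPM, log2 1.39 ± 0.33) and the synthesis enzymes Gatm (1.17 ± 0.30) and Gamt (1.12 ± 0.32). The calcium channel Ryr2 fell from 12.9 ± 6.90 to 2.14 ± 1.02 CPM (-2.59 ± 0.44). The uncalled members with large estimates were Ryr1, Atp2a1, Ckm and Ckmt2, and all of these but Ckmt2 are also in the list of skeletal muscle markers. Atp2a1 was at 922 and 737 CPM in TN replicates 6 and 24 and at 0.939 to 39.5 CPM in the other 6 libraries.

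Of 12 genes that mark white fat, 5 were too low to test, 5 rose at TN and 2 were not called. The number that rose was 3 without RT replicate 12, without TN replicate 7 or without TN replicates 6 and 24. The imprinted gene Mest, which follows white fat expansion, was at 1.12, 6.57, 3.12 and 6.26 CPM at RT and 39.9, 40.2, 70.1 and 31.8 CPM at TN (log2 3.42 ± 0.66). Leptin (Lep) was at 115, 94.3, 102 and 173 CPM at RT and 219, 255, 355 and 216 CPM at TN. These groups did not overlap (log2 1.11 ± 0.36, adjusted p 0.0260), but the call was lost without RT replicate 12, 15 or 17 or TN replicate 6 or 7 (0.941 to 1.141), without the filter on low counts (1.130), and without TN replicates 6 and 24 (1.257) or RT replicate 12 and TN replicate 24 (1.167). Adiponectin (Adipoq) did not separate, at 849 ± 270 and 844 ± 138 CPM.

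A wider list was taken from the knockout mice at RT, whose libraries are not part of the wild-type groups, although the brown ones share the fit's estimate of spread. Genes at least 8-fold apart between the depots, without overlap and at 5 CPM or more in the higher depot, gave 577 white-depot genes (559 tested) and 167 brown-depot genes (all 167 tested). At TN, 277 of the white-depot genes (49.6%) rose in wild-type brown fat and 2 (0.4%) fell, with a median log2 change of 1.21. Of the brown-depot genes, 99 (59.3%) fell and 2 (1.2%) rose, with a median of -1.06. Over all genes tested these shares were 15.9% higher and 16.7% lower. The knockout brown fat that set both lists was also at RT, so genes high or low in brown fat at RT can enter through that level. How much this adds to the shares was not tested. Which cells of either depot express these genes was not tested. Apcdd1, an inhibitor of Wnt signalling, rose from 3.84 ± 2.10 to 33.1 ± 14.0 CPM against 288 CPM in the epididymal libraries. An exception among brown-depot genes was the immediate early gene Fosb, which rose from 23.4 ± 18.7 to 210.0 ± 170 CPM (log2 3.17 ± 0.87).

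**Figure D3:**
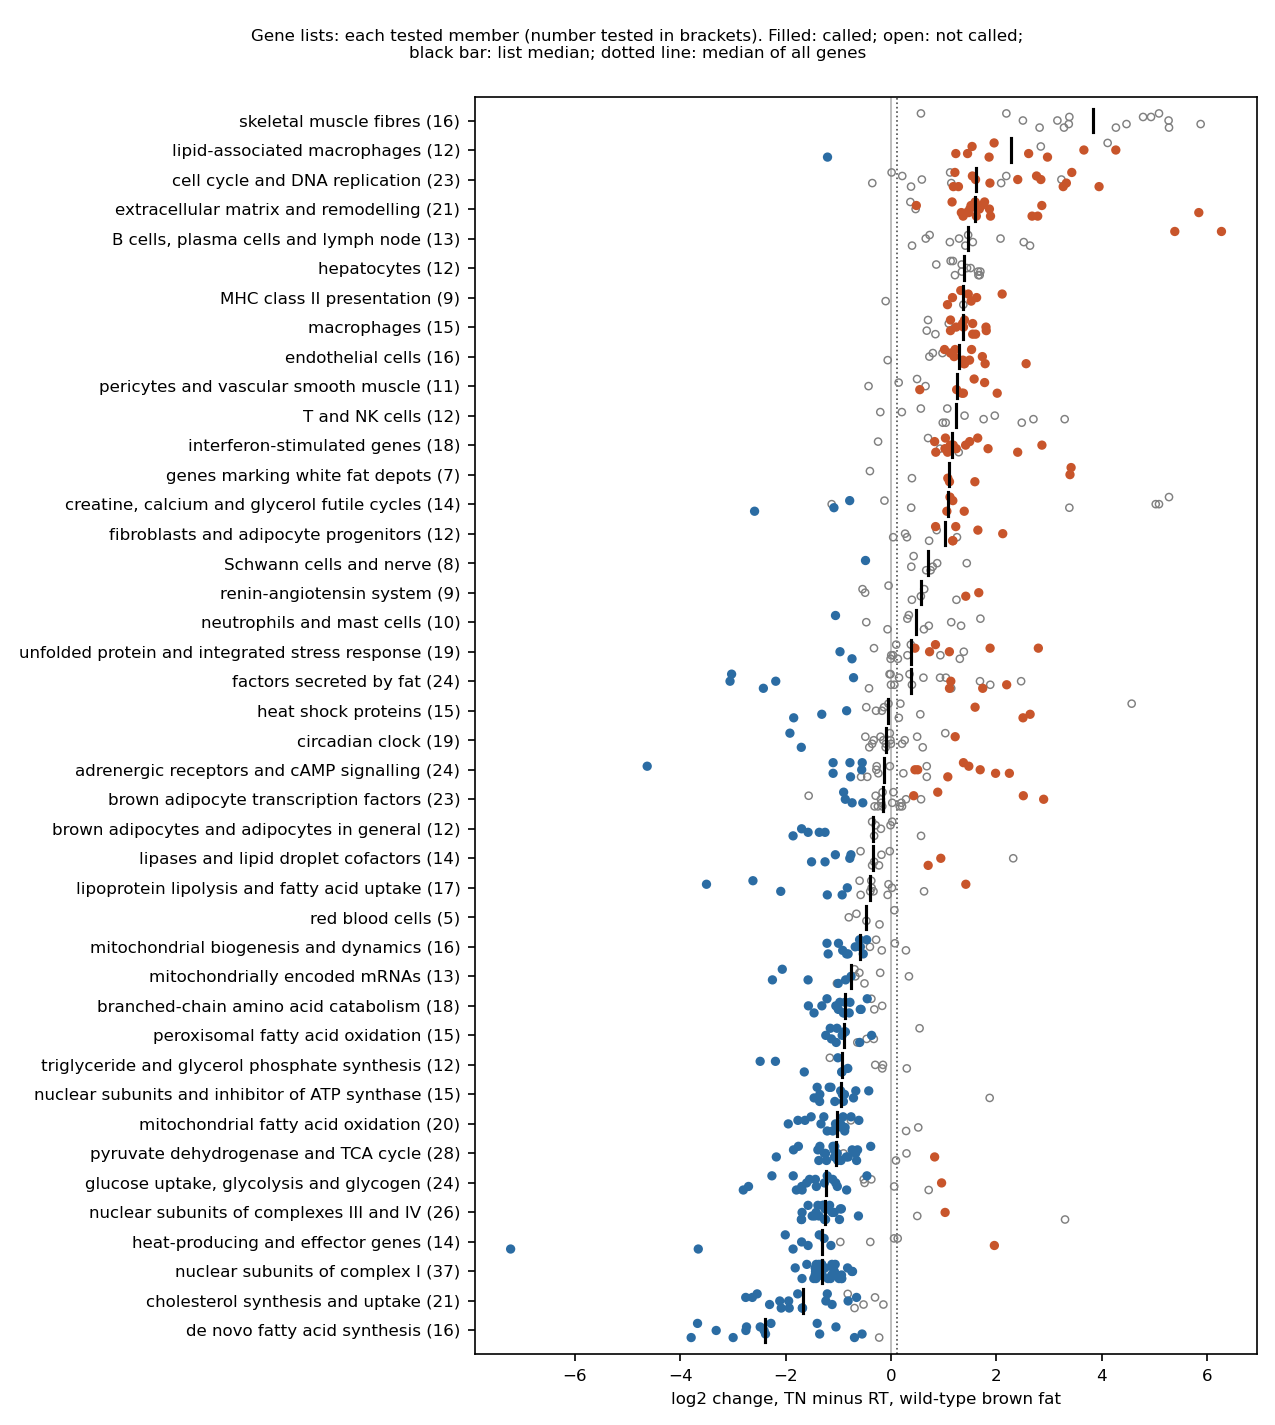
Each row is 1 of 42 gene lists, with the log2 change TN minus RT of each tested member as a point, filled where called and open where not, a black bar at the list's median and a dotted line at the median of all genes. The respiratory chain and lipid synthesis lists lie left of 0, the matrix, immune and vascular lists right of it, and the skeletal muscle list has large estimates with no call.

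Extracellular matrix genes rose: 19 of 21 were called higher and 2 were not called (median 1.598). Tnc (ENSMUSG00000028364), tenascin C, a matrix protein of remodelling tissue, was at 0.271, 0.234, 0.160 and 0.991 CPM at RT and 27.8, 26.9, 23.5 and 12.2 CPM at TN (log2 5.84 ± 0.73). The fibrillar collagens Col1a1 (30.7 ± 3.52 to 114 ± 29.8 CPM, 1.89 ± 0.22) and Col3a1 (111 ± 16.1 to 405 ± 63.8 CPM, 1.87 ± 0.23) rose without overlap. Thbs1 and Ccn2, matrix-associated signalling proteins, rose by 2.86 and 2.68. Of 12 fibroblast and progenitor markers, 6 rose and 6 were not called. Dpt went from 62.1 ± 35.1 to 270 ± 42.0 CPM, while the progenitor markers Pi16 and Ly6a were not called (0.27 and 0.04). The summed fibroblast markers were 593 to 1057 CPM at RT and 1759 to 3229 CPM at TN.

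Macrophage genes rose in the TN libraries, with 11 of 15 called and 4 not called. Their sum was 76.5 to 192 CPM at RT and 334 to 715 CPM at TN. Cd68 went from 3.56 ± 1.29 to 12.4 ± 4.00 CPM (log2 1.81 ± 0.29) and the monocyte receptor Ccr2 from 4.68 ± 1.41 to 16.4 ± 5.16 CPM (1.80 ± 0.28). Of 12 genes known from lipid-laden macrophages, 9 rose, 1 fell and 2 were not called. Mmp12 was at 0.160 to 1.20 CPM at RT and 6.67, 15.5, 8.04 and 6.96 CPM at TN (3.66 ± 0.61), and Gpnmb went from 1.40 ± 0.67 to 8.54 ± 3.93 CPM (2.61 ± 0.44). The member that fell, Acp5, went from 150.2 ± 34.4 to 65.1 ± 5.96 CPM. Antigen presentation by MHC class II had 7 of 9 higher, for example Cd74 from 67.3 ± 14.5 to 208 ± 41.3 CPM (1.62 ± 0.20). Interferon-stimulated genes had 14 of 18 higher and 4 not called, for example Ifit3 (6.18 ± 1.07 to 17.4 ± 5.27 CPM, 1.49 ± 0.24).

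Endothelial genes were higher, with 12 of 16 called and 4 not called (median 1.29). Their sum was 311 to 376 CPM in RT replicates 15, 17 and 18 and 952 CPM in RT replicate 12, and 1796 to 1981 CPM in TN replicates 1, 6 and 7 and 657 CPM in TN replicate 24, so the groups overlapped. Gene by gene, the groups did not overlap for 3 of the 16, against 27.2% of all genes tested. Among those 3, the junction gene Cldn5 was at 14.9, 7.71, 6.72 and 12.8 CPM at RT. At TN it was at 87.5, 53.5, 54.8 and 53.5 CPM (log2 2.565 ± 0.561). The number called was 6 without RT replicate 15, 17 or 18 or TN replicate 1, and 15 without RT replicate 12 and TN replicate 24. Of 11 markers of pericytes and smooth muscle, 7 rose and 4 were not called, with Acta2 from 10.6 ± 4.43 to 31.6 ± 5.14 CPM, and 4, 4 and 3 rose without RT replicates 15, 17 and 18.

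Genes of DNA replication and mitosis rose from low levels, 13 of 23 with 10 not called. Mki67, a marker of cycling cells, was at 1.08, 0.536, 0.961 and 1.25 CPM at RT and 6.53, 13.8, 12.3 and 4.26 CPM at TN (log2 3.27 ± 0.45). Top2a went from 0.631 ± 0.288 to 6.29 ± 2.95 CPM (3.33 ± 0.53). Which cells divided is not shown by tissue RNA.

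None of 12 tested T and NK cell markers was called by edgeR (2 at an unadjusted p under 0.05, and DESeq2 called 1). Without RT replicate 15 or 17, 1 and 2 were called. Their sum was 1.19 to 5.77 CPM at RT and 5.05 to 12.7 CPM at TN. Of 13 B cell, plasma cell and lymph node markers, 2 rose and 11 were not called, a share higher near the 15.9% over all genes tested. The 2 were Igha and Blk, the second at 0 CPM in the 4 RT libraries, and 1 rose without RT replicate 17 or 18 or TN replicate 6. The lymph node gene Glycam1 was at 0 in all 8 libraries. Immunoglobulin Igha was at 2.25, 10.1, 40.3 and 4.23 CPM at TN and 0.134 to 0.574 CPM at RT. None of 16 skeletal muscle markers was called by edgeR (0 at an unadjusted p under 0.05, while DESeq2 called 4), although 2 TN libraries carried most of that RNA. Hepatocyte markers summed to 26.4 to 418 CPM at RT and 141 to 1157 CPM at TN, and none of 12 was called (0 by edgeR or DESeq2, and 0 at an unadjusted p under 0.05). Albumin among them was at 8.86 to 252 CPM at RT and 48.1 to 438 CPM at TN. The part that such RNA from neighbouring or other tissue has in any of these results was not tested, beyond the fit without TN replicates 6 and 24.

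**Figure D4:**
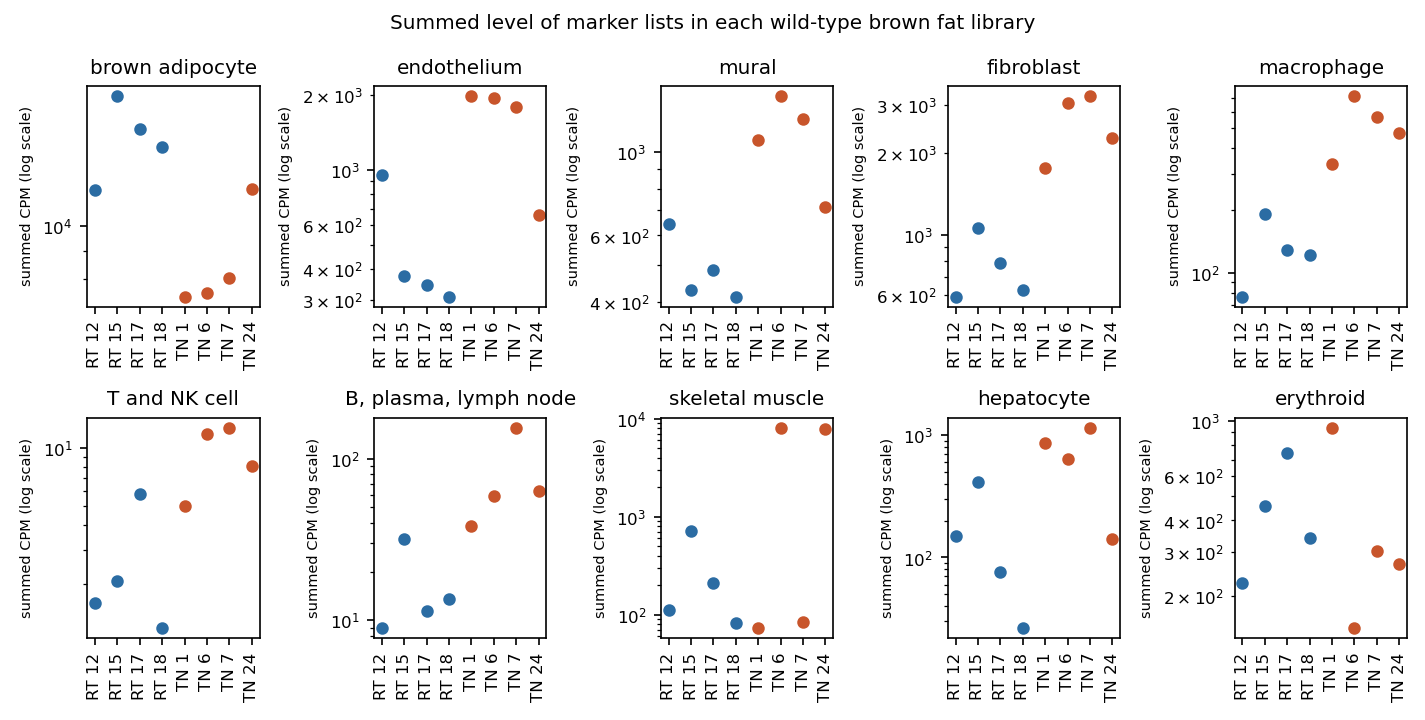
Each panel gives the summed CPM (log axis) of a marker list in the 8 wild-type brown fat libraries, RT in blue and TN in orange. Macrophage and fibroblast sums separate the groups, endothelial sums are 952 CPM in RT 12 and 657 CPM in TN 24, and muscle sums are 8132 CPM in TN 6 and 7874 CPM in TN 24.

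Hormones and growth factors secreted by fat gave 4 higher, 5 lower and 15 not called of 24. Both shares called were near those over all genes tested (15.9% higher and 16.7% lower). The number higher was 2 without RT replicate 17 or TN replicate 6 or 7. The brown-fat signals Bmp8b (2.09 ± 1.13 to 0.249 ± 0.197 CPM) and Fgf9 (3.28 ± 1.61 to 0.398 ± 0.330 CPM) fell by 3.06 and 3.03 on the log2 scale. Fgf21 was low in both groups (2.19 ± 1.83 and 0.406 ± 0.533 CPM), and its call was lost without RT replicate 15 or 17 or TN replicate 1, 6 or 7 (log2 -2.504 to -1.664) and in the fit of the 8 wild-type libraries alone (-2.385). Apln, a vascular peptide, rose from 2.61 ± 0.89 to 12.0 ± 2.69 CPM (2.20 ± 0.37). Among 9 genes of the renin-angiotensin system, Ace, the angiotensin-converting enzyme, rose from 8.57 ± 2.45 to 23.0 ± 3.53 CPM (1.42 ± 0.24) and the peptidase Anpep from 3.95 ± 0.94 to 12.6 ± 6.26 CPM (1.67 ± 0.33). Agt itself was at 0.542, 2.28, 0.320 and 0.209 CPM at RT and 1.96, 1.51, 2.17 and 2.40 CPM at TN and was not called, and Ren1 had no counts. Of the 9, 2 rose, 0 fell and 7 were not called. Without RT replicate 12, or with DESeq2, 4 members of this list rose and 1 fell. The number lower was also 1 without TN replicate 24 and in the fit of the 8 wild-type libraries alone.

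Stress genes were mixed. Of 19 genes of the unfolded protein and integrated stress responses, 6 rose, 2 fell and 11 were not called, with 4 lower without TN replicate 24 and 1 without RT replicate 15 or TN replicate 6 or 7. Those that rose by the most make serine or phosphoenolpyruvate. Phgdh was at 2.07, 13.3, 6.60 and 12.5 CPM at RT and 53.0, 50.6, 55.9 and 79.4 CPM at TN (log2 2.80 ± 0.49), and Pck2 went from 8.74 ± 1.55 to 32.2 ± 5.67 CPM (1.88 ± 0.19). Atf4 was not called (0.00), and Atf5 fell (-0.97 ± 0.26). The asparaginase gene Aspg fell to a similar level in each TN library, at 149, 153, 135 and 134 CPM at RT and 12.6, 11.4, 9.52 and 7.41 CPM at TN (-3.80 ± 0.23, adjusted p 2.37e-08). Of the rises by size in CPM, the plasma antioxidant enzyme Gpx3 went from 958 ± 134 to 2080 ± 623 CPM (1.12 ± 0.23) and apolipoprotein Apoe from 473 ± 165 to 1428 ± 217 CPM (1.59 ± 0.30). Of 19 clock genes 1 rose (Per1, 1.22 ± 0.29), 2 fell and 16 were not called. Both shares called were below those over all genes tested (15.9% higher and 16.7% lower). The number lower was 1 without RT replicate 15 or 17, without TN replicate 6 or 24 or both, and without the filter on low counts. The number higher was 2 without TN replicate 7.

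The knockout mice gave a separate look at the same housing contrast in 8 other libraries. There edgeR called 2735 genes (15.2%), of which 1198 (6.64%) were higher and 1537 (8.52%) lower. Of the wild-type calls, 881 higher and 1370 lower were called the same way in the knockout, which is 38.4% of the wild-type and 82.3% of the knockout calls, and 3 were called in opposite directions. The knockout estimate had the wild-type sign for 93.9% of wild-type calls. Fasn changed by -3.27 and Pmvk by -2.66 on the log2 scale in the knockout. Fatty acid synthesis had 14 of 16 lower and cholesterol 15 of 21. Complex I had 24 of 37 lower, matrix 17 of 21 higher and macrophage markers 11 of 15 higher. Other lists gave few or no calls in the knockout. Endothelial markers had 0 of 16 called by edgeR (1 at an unadjusted p under 0.05, and DESeq2 called 0), against 12 in the wild type. Pericyte and smooth muscle markers had 0 of 11 (2 unadjusted, and DESeq2 called 2), and mRNAs of the mitochondrial genome 0 of 13 (4 unadjusted, and DESeq2 called 3), against 7 and 6. Genes of mitochondrial biogenesis and dynamics had 2 of 16 lower against 11, and branched-chain amino acid catabolism 5 of 18 against 15. A difference in counts is not a test of the difference between genotypes.

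**Figure D5:**
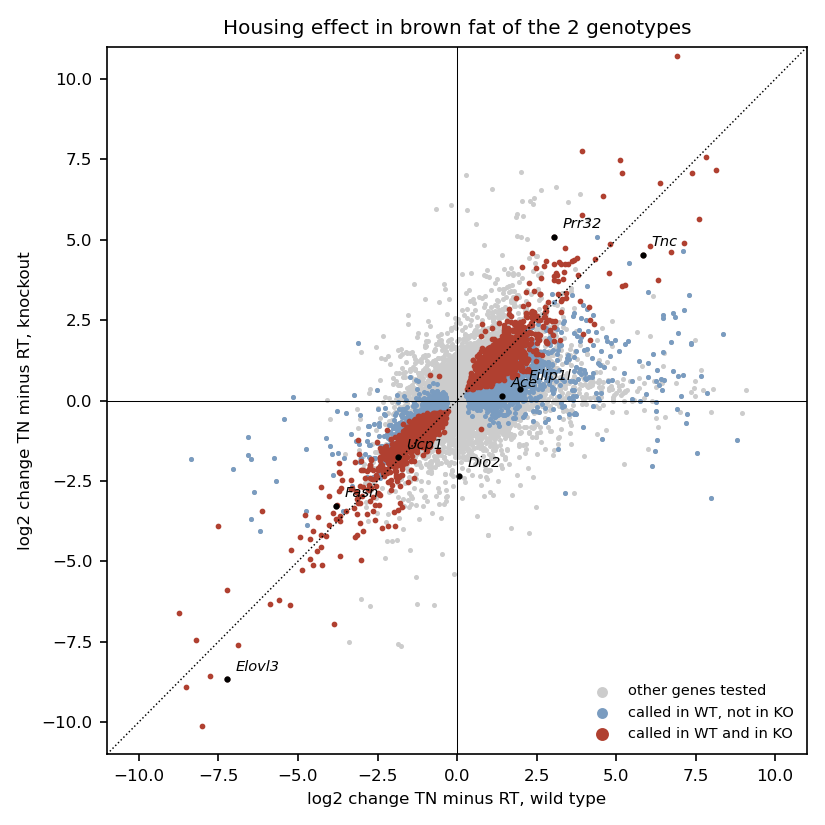
Each point is a gene tested, with the log2 change TN minus RT in wild-type brown fat on the x axis and in knockout brown fat on the y axis; red genes are called in both genotypes, blue in the wild type and not in the knockout. Fasn (-3.795 and -3.27) lies near the dotted line of equal change, and Ace lies near 0 on the knockout axis. Not all lists changed equally: the median change of complex I was -1.32 in the wild type and -0.70 in the knockout.

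The test of the difference itself, the interaction of housing and genotype, called 0 of 18032 genes (0.0%) over the 16 libraries with edgeR. The lowest adjusted p was 0.383, 1832 genes had an unadjusted p under 0.05, and DESeq2 called 21. The 3 genes with the lowest p where the wild-type change was higher were Filip1l (log2 1.99 in the wild type, 0.37 in the knockout), St8sia6 (1.32 and -0.80) and 6530402F18Rik (0.11 and -1.115). Those where it was lower were Osbpl1a (-0.615 and 0.30), Itpka (-0.84 and 0.81) and AC122453.1 (-0.55 and 0.75), all at an interaction adjusted p of 0.383 with edgeR. This count depended on the libraries. It was 21 without wild-type RT replicate 12, 1 without wild-type TN replicate 24, 3 without knockout TN replicate 2 and 1982 without the first and second of these together. Arntl was above 5 CPM in those 2 wild-type libraries, in knockout RT replicates 9 and 10 and in knockout TN replicates 2 and 3. With all 6 left out, 1661 of 18701 genes (8.88%) were called for interaction, in 3 against 3 wild-type and 2 against 2 knockout libraries. The wild-type change was the larger in size for 1518 of them. In that fit 32 of 37 complex I genes, 22 of 26 of complexes III and IV and 15 of 20 of mitochondrial fatty acid oxidation fell more in the wild type. Median changes of complex I were -1.62 in the wild type and -0.58 in the knockout. Of 16 endothelial markers, 10 rose more in the wild type, with medians of 1.86 and 0.58. Fatty acid synthesis had 2 of 16 called, with medians of -2.73 and -2.36. For cholesterol the medians were -1.76 and -1.795. This split was chosen after the values were seen, and RT replicate 12 and TN replicate 24 are also the wild-type libraries nearest to the opposite group on the first principal component, so leaving them out widens the wild-type difference. Collection times are not in the labels, and whether they differed was not tested.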

How the data were processed

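Brown fat RNA was sequenced in paired ends, and the authors deposited 1 table of raw read counts per gene for each library, per the labels. The submitters' processing notes name fastp, STAR 2.6.1d, featureCounts 1.5.0-p3 and the mouse build GRCm38; their roles, the annotation release and the strand setting are not given in the sources used here, so overlapping and antisense genes may share counts. No coordinates are given for counts. Symbols of list members were matched to gene IDs by symbol (699 of 718 entries) or RefSeq synonym (18). Of the 718 entries, 685 passed the filter on low counts and were tested, and counts of a list are over its tested members.

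The 16 brown fat libraries of both genotypes were fitted with edgeR 4.0.16 in R 4.3.3 (quasi-likelihood, robust, TMM, filterByExpr with a minimum count of 10), with 1 mean per group, so that all 4 groups share the estimate of spread. Wild-type TN minus RT, the same contrast in the knockout and their difference were tested, with Benjamini-Hochberg adjustment over all 18032 genes and a threshold of 0.05. SE is the absolute log2 change divided by the square root of F. CPM values are TMM-scaled; marker sums and the comparison of depots use plain library totals. The fit was also run on simulated counts that had the same spread for every gene and no outlying library. That run therefore does not cover libraries such as TN replicate 24.

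The 42 gene lists were chosen with earlier results of these data known. Genes were named by these rules: per direction the 12 largest log2 changes at 10 CPM or more and the 8 largest CPM differences, among called genes without overlap; up to 4 called members per list with the largest change; 18 genes regardless of call; and 3 genes per direction for the interaction. Other members, among them those not called, and Arntl and Dbp were named after their values were seen. Alternatives were size factors in place of TMM, DESeq2 1.42.0, no filter, a filter of 1 CPM, the 8 wild-type libraries alone, leaving out each library, and a 4-fold depot rule. Leaving out TN replicates 6 and 24, RT replicate 12 with TN replicate 24, or the libraries with Arntl over 5 CPM was chosen after seeing the data. Some members of the lists are not reported here.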

Additional observations from a re-analysis of the deposited data

Results flagged for a closer look

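In each group of 4 wild-type libraries, the highest or lowest value was compared with the rest by Dixon's ratio against its 95% critical value. Of 340 groups of values examined, 42 held such a value, where chance gives about 1 in 20, and genes of 1 pathway are not independent. TN replicate 24 gave 27 of these, RT replicate 12 gave 6, RT replicate 18 gave 4, TN replicate 1 gave 2 and RT replicates 15 and 17 and TN replicate 6 gave 1 each. TN replicate 24 was the highest TN library for Slc2a5 9.149, Fasn 2930, Acly 831.2, Plin2 1297, Angptl8 18.24, Me1 254.4, Acadvl 1917, Pdhb 552 and Dld 791.4 CPM. The same held there for Ndufa11 139.9, Uqcr10 341.3, Cox8b 903.2, Opa1 213.1, Gys2 25.83, Pcca 206.9, Fgf21 1.2, Atf5 137.8 and Nsdhl 24.24 CPM. The same held there for Pmvk 23.04, Dio2 192.8, Ppargc1a 74.21, Gk 247.5 and Pdk4 2954 CPM. TN replicate 24 was the lowest TN library for Acsl5 45.32, Notch3 22.2, Oasl2 4.529 and H2-Ab1 72.47 CPM. RT replicate 12 was the highest RT library for Robo4 20.3 CPM. RT replicate 12 was the lowest RT library for mt-Nd6 709.9, Timm23 114, Bckdha 531.2, Mccc1 231.8 and Cryab 19.42 CPM. RT replicate 18 was the highest RT library for Tnc 0.9907, Nr4a1 16.06, Elovl6 1717 and Atf5 266.3 CPM. TN replicate 1 was the highest TN library for Cldn5 87.51 CPM. TN replicate 1 was the lowest TN library for Dpt 207.6 CPM. TN replicate 6 was the highest TN library for Mmp12 15.46 CPM. RT replicate 15 was the highest RT library for Agt 2.278 CPM. RT replicate 17 was the highest RT library for Angptl8 130.9 CPM.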

How the results depend on the processing

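The wild-type call counts kept within 1.5 times of 2864 higher and 3003 lower under the other normalization (2955 and 2919), DESeq2 (3489 and 3150), no filter (2577 and 2563), the 1 CPM filter (2883 and 3034) and the 8 libraries alone (2454 and 2490), and ran from 2104 to 3341 higher and from 2281 to 3364 lower with each library left out. Of 170 named genes with a wild-type value, 143 kept their direction and side of the threshold under every alternative run. Knockout genes lower, 1537, ran from 951 to 1468 with a library left out, the fewest without knockout TN replicate 4. The interaction count of 0 became 21 with DESeq2, 0 to 21 with a library left out, 1982 without RT replicate 12 and TN replicate 24, and 1661 without the libraries with high Arntl. The cause was not tested. The share of white-depot genes lower was 2.0% with the 4-fold rule against 0.4%. Directions turned for 4 genes that were not called. Dio2 (0.057) was -1.228 without TN replicates 6 and 24, -1.506 without RT replicate 12 and TN replicate 24, and -1.616 to 0.464 with a library left out. Pdk4 (0.093) was -0.148 and -0.177 in the same 2 settings and -0.211 to 0.235 with a library left out. Adipoq (-0.010) was 0.005 with size factors, 0.005 with DESeq2, 0.013 without the filter, 0.019 in the 8 libraries alone, and -0.192 to 0.131 with a library left out. Cd36 (-0.064) ran from -0.159 to 0.056. No paired analysis was possible because the RT and TN libraries of a genotype share no replicate numbers. With 4 libraries a group, genes below about 1 CPM rest on few counts.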
